A study of Homo sapiens with 72 samples.

Results

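U2OS cells lacking G3BP1 and G3BP2 were compared with the same knockout cells transfected with G3BP1, in the first of 2 RNA-seq experiments of the series. The comparison rests on 2 knockout libraries and 2 rescue libraries, 4 of 72 libraries in all, and takes in every Ensembl gene of the authors' table of this contrast, 61541 genes. Of these, 36650 had reads and 22945 had been given an adjusted p-value. U2OS is a human osteosarcoma line. The genotype of both groups is G3BP1/2 knockout; the knockout group was untreated, and the rescue group had received a G3BP1 transgene by Lipofectamine and was collected 24 h later. No mock-transfected knockout cells are among these groups, so that transfection and the protein it brought cannot be told apart here. Untreated wild-type U2OS cells (2 libraries) were sequenced beside them. The second experiment repeated knockout (2 libraries) and rescue by wild-type G3BP1 (2 libraries, 24 h after transfection) in libraries of its own. The labels give no number of knockout clones, and nothing says that the libraries of a group came from separate cultures, so p-values measure the spread between these libraries, which may be technical.

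G3BP1 and G3BP2 are paralogous RNA-binding proteins that nucleate stress granules, the cytoplasmic bodies of RNA and protein that form when translation initiation stalls. G3BP1 dimerises through its NTF2-like domain, through which it also meets CAPRIN1 and USP10, and binds RNA through an RRM and an RGG region. In unstressed cells both proteins are mostly dispersed in the cytoplasm, where G3BP1 has been tied to mRNA stability, translation and antiviral signalling.

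Whole reads per library could be worked out exactly from the authors' base means. Gene reads, in units of 1e+06, came to 38.6 and 52.5 in the knockout libraries, 49.6 and 49.4 in the rescue libraries and 42.8 and 45.0 in wild type, against 10.8 to 14.2 in the second experiment. Levels are given below as reads per 1e+06 gene reads (CPM), and 2 values joined by "and" are the 2 libraries of a group. The 2 experiments were tabulated separately, with different aligner versions listed by the submitters, so levels set side by side across them were not tested. CPM does not correct for gene length, so levels are compared between groups and not between genes. The libraries of a group correlated across genes at 0.998 but differed beyond sampling, with a mean squared standardised difference of 4.55 in knockout and 4.95 in rescue. The share of reads outside annotated features was 20.3% and 21.2% in knockout and 13.3% and 17.8% in rescue, and mitochondrially encoded genes took 11.0% and 11.3% of gene reads in knockout and 7.77% and 8.32% in rescue. The part of these shares in the results was not tested.

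G3BP1 reads differed modestly between knockout and rescue. G3BP1 (ENSG00000145907) stood at 281 and 273 CPM in knockout, 437 and 435 in rescue and 408 and 417 in wild type. Rescue libraries thus lay 1.57-fold above knockout and at 106% of the wild-type mean, with no overlap between knockout and rescue. The log2 fold change of knockout over rescue for G3BP1 was -0.69 in the authors' deposited table (SE 0.04, adjusted p 4.74e-63). Reads of the transgene and of the endogenous gene were not separated, and G3BP1 reads were present in the knockout cells, so these values do not check the loss of protein. In the second experiment the same gene was at 292 and 290 CPM in knockout and at 38323 and 40180 in rescue, and the authors' deposited table of that experiment gives -7.31 for knockout over rescue.

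G3BP2 (ENSG00000138757), which was not put back, was at 142 and 143 CPM in knockout, 164 and 168 in rescue and 182 and 189 in wild type. Its log2 fold change in the authors' deposited table was -0.25 (SE 0.05, adjusted p 1.59e-06). That call was lost when the Wald statistics of all genes were divided by their spread (adjusted p 0.175). Both rescue libraries lay above both knockout libraries for either paralog, while the size of the G3BP1 difference was far from that of the second experiment.

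**Figure D1:**
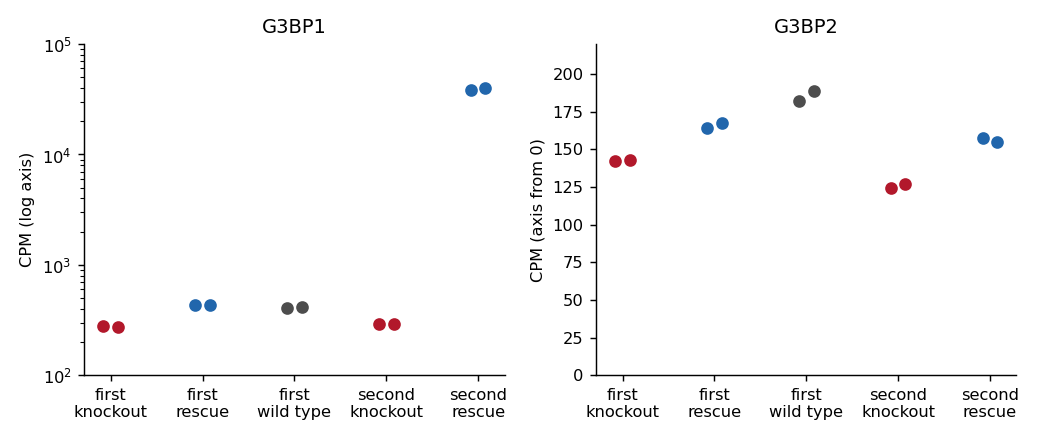
Levels of G3BP1 (left, log axis) and G3BP2 (right, axis from 0) in CPM; each point is 1 library. G3BP1 in first-experiment rescue (437 and 435 CPM) is near wild type (408 and 417), whereas second-experiment rescue is at 38323 and 40180.

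Knockout and rescue differed at many genes, mostly by little. Of 22945 genes tested, 3692 were called higher in knockout (16.1% of those tested) and 4925 lower (21.5%), 37.6% in all, at an adjusted p under 0.05. Among called genes 51.1% had a log2 fold change within 0.5 of 0, and 598 were higher and 651 lower by at least 1. With each Wald statistic divided by the spread of all of them, 945 and 1670 were called. Centred on the median of genes whose base mean reached 100, the calls were 4350 higher and 4309 lower, so the excess of lower calls was not seen there. The larger changes were mostly lower levels in knockout: 170 called genes were lower by 2 or more against 58 higher, and 18 were lower by 4 or more against 0 higher. The median over all genes tested was 0.01, and it was -0.05 over the 13697 whose base mean reached 100. Both knockout libraries lay above or below both rescue libraries at 73.5% of the tested genes. The share of genes called rose with the base mean, from 2.62% under 10 to 80.0% at 10000 or more, where the median SE was 0.04 against 0.32 at base means of 10 to 100. Protein-coding genes were called lower more often (4505 of 14448) than higher (2851), and the reverse held for long noncoding RNAs (175 lower and 293 higher of 2008) and transcribed pseudogenes (25 lower and 92 higher of 478). The pseudogenes can share reads with their parent genes.

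**Figure D2:**
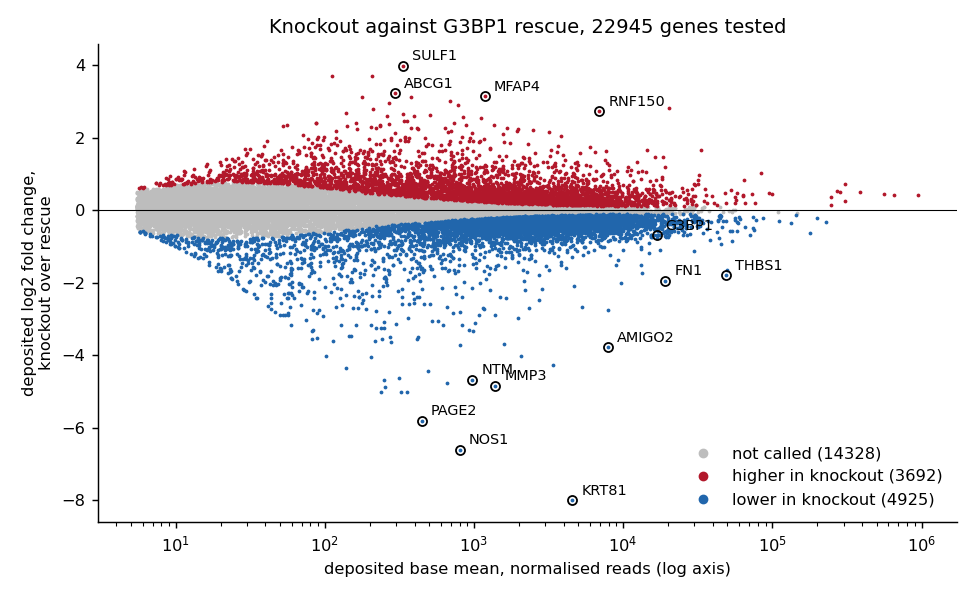
Deposited log2 fold change of knockout over rescue against the deposited base mean (log axis) for the 22945 genes tested; red, 3692 called higher; blue, 4925 called lower; grey, not called. The lower side reaches -8.01 (KRT81) and the upper side 3.98 (SULF1).

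The genes lowest in knockout were near silent there and plainly expressed in rescue. KRT81 (ENSG00000205426), a hair keratin, was at 0.44 and 0.40 CPM in knockout, 205 and 179 in rescue and 273 and 295 in wild type. Its log2 fold change in the authors' deposited table was -8.01 (SE 0.18), with an adjusted p listed as 0. KRT81 shares sequence with other type II hair keratins, so some reads could be misassigned. NOS1 (ENSG00000089250), the neuronal nitric oxide synthase, had 3 reads in each knockout library and stood at 33.9 and 33.8 CPM in rescue and 74.2 and 79.5 in wild type (-6.62 in the authors' deposited table). PAGE2, a cancer-testis gene with near-identical relatives, also had 3 reads in each knockout library against 19.0 and 18.5 CPM in rescue (-5.81 in the authors' deposited table).

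The remaining genes of this group of 10 followed the same pattern. DPYSL5, a collapsin response mediator protein, was at 0.08 and 0.02 CPM in knockout against 10.1 and 9.83 in rescue. CNTN1 and NTM, neural adhesion molecules of the immunoglobulin superfamily, went from 26.7 and 27.1 and from 42.7 and 36.9 CPM in rescue to 0.65 and 0.78 and to 1.35 and 1.22 in knockout. KRTAP2-3, KRT34 and LINC02901 were between 10.5 and 14.8 CPM in the rescue libraries and between 0.05 and 0.23 in knockout. For 9 of these 10 genes wild type lay above rescue; the exception was MMP3 (ENSG00000149968), stromelysin-1, a secreted matrix protease. MMP3 was at 0.73 and 0.40 CPM in knockout, 65.9 and 50.03 in rescue and 5.83 and 4.42 in wild type, and its log2 fold change was -4.85 in the authors' deposited table (SE 0.28, adjusted p 6.94e-65).

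Taken by level alone, a choice made after the values were seen, 14 genes were at 1 CPM or less in both knockout libraries and at 10 or more in both rescue libraries. Of these 14, 13 were at 10 CPM or more in both wild-type libraries. In the second experiment 2 of the 14, MMP3 and KRTAP2-3, were at 10 CPM or more in both rescue libraries and 6 were at 1 or less there. TRAF3 (ENSG00000131323), an adaptor that restrains the noncanonical NF-kappaB pathway, is one of the 14. It was at 0.75 and 0.57 CPM in knockout, 20.2 and 19.7 in rescue and 36.7 in each wild-type library, and at 1.58 and 1.57 in knockout and 0.94 and 1.55 in rescue of the second experiment. MYEOV, MYL2 (a myosin light chain), FAP (fibroblast activation protein), INSYN2B and AK5 (an adenylate kinase) complete the set. For KRT81 the second experiment had 0.19 and 0.08 CPM in knockout and 0 reads in both rescue libraries. Except MMP3, each of the 14 genes was lower in both second-experiment rescue libraries than in the first-experiment rescue libraries.

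At the other end, 10 genes were highest in knockout. SULF1 (ENSG00000137573), which trims sulfate from heparan sulfate chains outside the cell, was at 12.3 and 15.4 CPM in knockout, 0.48 and 0.63 in rescue and 0.91 and 0.78 in wild type. Its log2 fold change was 3.98 in the authors' deposited table (SE 0.22, adjusted p 3.26e-74). ABCG1, a cholesterol exporter, was at 11.6 and 12.1 CPM in knockout and 0.91 and 0.97 in rescue (3.23 in the authors' deposited table). SULF1 and ABCG1 were the 2 genes at 10 CPM or more in both knockout libraries and 1 or less in both rescue libraries.

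MFAP4, a microfibril-associated glycoprotein, was at 46.4 and 46.1 CPM in knockout, 3.99 and 5.47 in rescue and 0.05 and 0.07 in wild type. LSAMP, an adhesion molecule of the same family as NTM, was at 26.3 and 27.3 CPM in knockout, 2.22 and 3.51 in rescue and 0.44 and 0.60 in wild type. POSTN, the matrix protein periostin, was at 6.45 and 7.78 CPM in knockout and 0.40 and 0.59 in rescue. MAP1LC3C, an LC3 protein of the autophagy machinery, PAMR1, LUARIS, IGSF10 and the pseudogene RHPN2P1 complete the 10 highest, with log2 fold changes from 2.89 to 3.69 in the authors' deposited table. As for every gene called higher, both knockout libraries lay above both rescue libraries at all 10. At these 10 they also lay above both wild-type libraries.

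**Figure D3:**
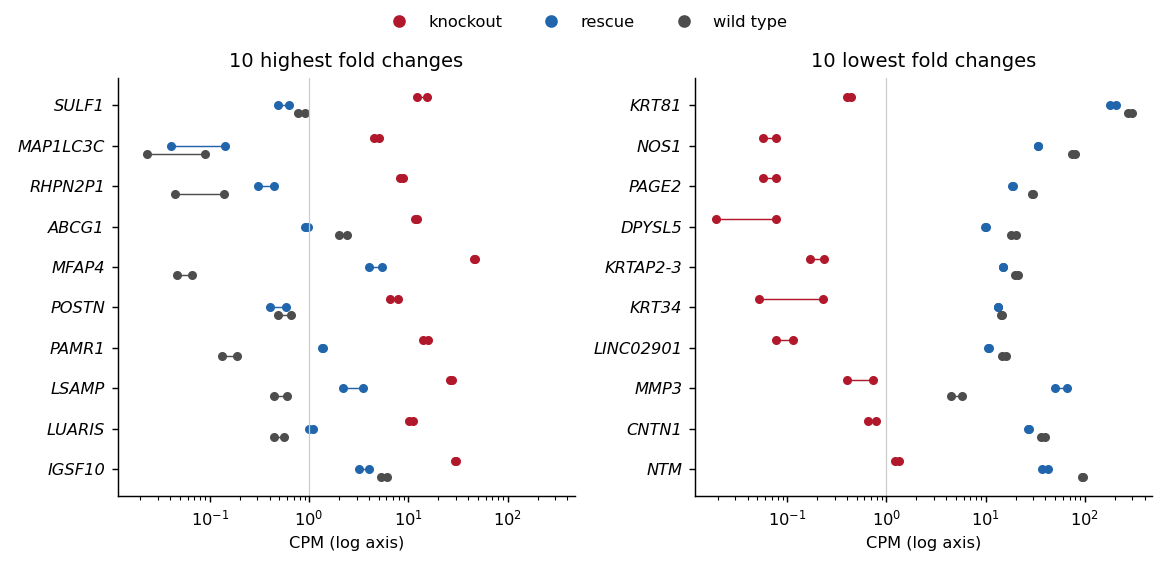
CPM (log axis) of the 10 genes with the highest and the 10 with the lowest deposited fold change; each point is 1 library and a line joins the 2 libraries of a group. Rescue lies between knockout and wild type for MFAP4, LSAMP and NTM, and MMP3 in rescue (65.9 and 50.03 CPM) is above wild type (5.83 and 4.42).

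Among genes whose base mean reached 1000, the 5 largest Wald statistics on the lower side were those of AMIGO2, THBS1, BCYRN1, KRT81 and FN1. AMIGO2 (ENSG00000139211), a neural adhesion protein, was at 24.3 and 21.2 CPM in knockout, 313 and 310 in rescue and 602 and 621 in wild type (-3.79 in the authors' deposited table, SE 0.06). THBS1, the matrix glycoprotein thrombospondin-1, was at 482 and 459 CPM in knockout, 1580 and 1606 in rescue and 1882 and 1902 in wild type (-1.79 in the authors' deposited table). FN1, fibronectin, was at 170 and 171 CPM in knockout, 649 and 635 in rescue and 1128 and 1194 in wild type (-1.94 in the authors' deposited table). BCYRN1, a small cytoplasmic RNA with many genomic copies and so uncertain reads, was at 6.92 and 6.73 CPM in knockout and 142 and 129 in rescue.

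In the other direction, RNF150, which encodes a RING finger protein, was at 255 and 267 CPM in knockout, 35.7 and 39.9 in rescue and 18.5 and 20.1 in wild type (2.72 in the authors' deposited table, SE 0.06). LOXL4, a lysyl oxidase-like collagen cross-linker, was at 466 and 476 CPM in knockout and 137 and 153 in rescue. SHOC1, a meiotic crossover gene, DCHS2, a large cadherin, and ROBO1, a receptor for SLIT ligands, had log2 fold changes of 2.05, 1.60 and 1.45 in the authors' deposited table. For SHOC1, DCHS2 and ROBO1, as for RNF150 and LOXL4, the 2 groups did not overlap. The same held for all 3692 genes called higher, and 73.5% of genes tested did not overlap in either direction.

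The translation machinery was lower in knockout than in rescue as a group. Of 79 cytosolic ribosomal protein genes tested, 72 were called lower and 1 higher, with a median of -0.35, against 21.5% lower, 16.1% higher and a median of 0.01 over all genes tested. Abundant genes were called more often: at base means of 10000 or more, 412 of 784 were lower and 215 higher, with a median of -0.14. RPL11 (ENSG00000142676), a large-subunit protein, was at 275 and 268 CPM in knockout, 453 and 445 in rescue and 395 and 405 in wild type (-0.76 in the authors' deposited table, SE 0.04, adjusted p 8.65e-74). RPS27A, which is made as a fusion with ubiquitin, was at 314 and 316 CPM in knockout and 510 and 518 in rescue (-0.74 in the authors' deposited table). RPL4 was at 1020.5 and 1000.5 CPM in knockout and 1477 and 1444 in rescue (-0.57 in the authors' deposited table). Summed over the list, ribosomal protein genes had 27331 and 27219 CPM in knockout, 35279 and 34395 in rescue and 28868 and 29122 in wild type. Knockout was thus near wild type in the sum and rescue stood above both. RPS15A was the gene called higher, and members with many processed pseudogenes carry uncertain reads. In the second experiment 75 of 79 were called lower in knockout and 0 higher, against 23% lower and 19.1% higher (42.1% in all) of the 20738 genes tested there.

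Translation factors went the same way, with 38 of 41 called lower, 0 higher and a median of -0.42. Their sum was 14039 and 13918 CPM in knockout, 17517 and 16990 in rescue and 14664 and 14902 in wild type. In this sum knockout was nearer to wild type than rescue was. EIF3J (ENSG00000104131), a subunit loosely held by the initiation factor eIF3, was at 43.2 and 42.4 CPM in knockout, 121 and 119 in rescue and 138 and 134 in wild type (-1.51 in the authors' deposited table, SE 0.06, adjusted p 5.27e-133). ETF1, the release factor eRF1, was at 85.2 and 88.1 CPM in knockout and 183 and 181 in rescue (-1.10 in the authors' deposited table). The eIF3 subunits EIF3D and EIF3B were at -0.98 and -0.68 in the authors' deposited table. In the second experiment 40 of 41 factors were called lower in knockout and 1 higher, against 23% and 19.1% of all genes tested there.

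Vertebrate ribosomal protein mRNAs typically begin with a C followed by a run of pyrimidines. In the RefSeq promoter table (GRCh38.p14), which runs from 250 bases before to 50 after each annotated start, a C with at least 4 further pyrimidines within 10 bases of the start was present in 56 of 63 ribosomal protein promoters (88.9%), 16 of 35 translation factor promoters (45.7%), 9 of 26 proteasome promoters (34.6%) and 33.3% of all 27305 promoters. Windows of 30 bases on the gene's strand, printed to show this start in 1 gene of either list that fell, have the run in capitals and come from chr15:66504838-66504867 (minus strand, RPL4) and chr22:36529149-36529178 (minus strand, EIF3D).
RPL4: agcgggagtggtaagcaCTTCCTTTTCctg
EIF3D: cgcgcatgtttCCTCTTTTCCTggtttctc

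Other housekeeping lists also had more members called lower than higher. Calls depend on level: of all tested genes, 2956 of 7266 at base means of 1000 to 10000 and 412 of 784 above were called lower, which bears on each list of abundant genes. At these 2 levels 1708 and 215 were called higher, and the medians were -0.09 and -0.14. Of 31 proteasome genes 29 were called lower, 0 higher, with a median of -0.48. PSMD2 (ENSG00000175166), a subunit of the regulatory particle base, was at 399 and 400 CPM in knockout, 898 and 827 in rescue and 853 and 902 in wild type (-1.14 in the authors' deposited table, SE 0.05). Nuclear genes of oxidative phosphorylation counted 52 lower and 2 higher of 75 (median -0.30). The ATP synthase subunit ATP5F1B was at 334 and 335 CPM in knockout and 542 and 517 in rescue. The list summed to 5522 and 5534 CPM in knockout, 6813 and 6673 in rescue and 5724 and 5783 in wild type, so knockout was near wild type. Glycolysis and hypoxia genes counted 21 lower and 1 higher of 33 (median -0.33), GAPDH standing at 3000 and 3023 CPM in knockout and 4583 and 4593 in rescue. That list summed to 9264 and 9298 CPM in knockout, 13101 and 12745 in rescue and 12217 and 12685 in wild type, so rescue was the nearer to wild type. Splicing factors (24 lower and 1 higher of 37), DNA replication (22 and 5 of 41), mRNA decay (19 and 4 of 38) and small nucleolar RNA host genes (12 and 1 of 17) had medians from -0.33 to -0.18. For DNA replication and mRNA decay the share called lower was not far from that of all abundant genes.

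Genes encoded in mitochondrial DNA went the other way. Of 13, 12 were called higher in knockout and 1 lower, with a median of 0.45, against 16.1% higher and 21.5% lower of all genes tested. MT-CYB (ENSG00000198727), the cytochrome b of complex III, was at 8089 and 8327 CPM in knockout, 4684 and 4955 in rescue and 4813 and 4515 in wild type (0.73 in the authors' deposited table, SE 0.04, adjusted p 2.04e-70). The exception was MT-ND6, the complex I subunit carried alone on the other strand, at 342 and 370 CPM in knockout and 540 and 516 in rescue (-0.60 in the authors' deposited table). Knockout libraries lay above wild type as well as rescue for MT-CYB. In the second experiment 4 of the 13 were called higher in knockout and 4 lower, against 19.1% and 23% of all genes tested there. A CPM is a share, so that a larger mitochondrial share lowers the CPM of all other genes; the fold changes of the authors use their own size factors.

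Stress granule proteins themselves were moderately lower in knockout than in rescue: 22 of 34 were called lower and 4 higher (median -0.24). Over all genes tested 21.5% were called lower and 16.1% higher. At base means of 1000 to 10000, 2956 of 7266 were called lower and 1708 higher, with a median of -0.09. Summed over the list, they had 11426 and 11408 CPM in knockout, 13530 and 13282 in rescue and 11464 and 11534 in wild type. In the sum knockout was thus near wild type and rescue stood above both. The list includes G3BP1 and G3BP2, both counted among the members called lower, and G3BP1 has its lowest value. The cold-shock domain protein YBX3 was at 416 and 407 CPM in knockout and 573 and 567 in rescue (-0.51 in the authors' deposited table). LARP1, a regulator of ribosomal protein mRNAs, and YBX1, a major mRNA-packaging protein, were both at -0.47 in the authors' deposited table. The G3BP1 partners CAPRIN1 and USP10 were at -0.23 and -0.22 in the authors' deposited table. TIA1, another stress granule protein, was called higher, at 0.48 in the authors' deposited table, as were ATXN2L (0.29) and ZC3HAV1 (0.20).

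Chaperone and stress response lists differed in direction. The shares over all genes tested, for this and the next paragraph, were 21.5% called lower and 16.1% called higher. Cytosolic heat shock genes counted 12 lower and 2 higher of 18, and summed to 8906 and 8923 CPM in knockout. The sum was 10977 and 10621 CPM in rescue and 8725 and 8870 in wild type, so knockout was near wild type. HSP90AA1, the inducible HSP90, was at 660 and 666 CPM in knockout and 1278 and 1217 in rescue (-0.95 in the authors' deposited table). The small heat shock protein CRYAB was at 35.0 and 36.0 CPM in knockout and 14.6 and 17.3 in rescue (1.09 in the authors' deposited table). Targets of NRF2, the regulator of antioxidant genes, counted 17 lower and 2 higher of 22, with the lowest median of the lists with at least 10 tested members, -0.57. The ferritin heavy chain FTH1 was at 711 and 682 CPM in knockout, 1118 and 1198 in rescue and 682 and 656 in wild type, and thioredoxin reductase TXNRD1 at 167 and 175 in knockout, 282 and 294 in rescue and 214 and 230 in wild type. For FTH1 it was rescue that stood apart, and knockout was near wild type.

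Integrated stress response genes counted 16 lower and 7 higher of 34, among them the folate enzyme MTHFD2 at 124 and 118 CPM in knockout and 215 in both rescue libraries. PPP1R15A, the stress-induced subunit of the eIF2-alpha phosphatase, was at 16.2 and 16.7 CPM in knockout and 32.2 and 32.9 in rescue, and at 24.6 and 26.9 against 160 and 163 in the second experiment. Endoplasmic reticulum chaperones counted 11 higher and 6 lower of 25, with SEL1L, of the degradation complex, at 326 and 342 CPM in knockout and 229 and 239 in rescue. Of the same 25, 3 were called higher and 14 lower in the second experiment, against 19.1% and 23% of all genes tested there. Immediate-early genes counted 11 lower and 2 higher of 25, with the AP-1 factor FOSL1 at 29.7 and 29.1 CPM in knockout and 70.3 and 75.4 in rescue. Among metallothioneins, MT2A was at 191 and 187 CPM in knockout, 390 and 351 in rescue and 194 and 186 in wild type. Of the 4 tested metallothioneins 2 were called lower and 0 higher.

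Antiviral and antigen presentation genes were more often higher in knockout than lower. Of 38 type I interferon response genes tested, 16 were called higher and 4 lower, with a median of 0.30. Over all genes tested 16.1% were called higher and 21.5% lower. PARP14 (ENSG00000173193), an ADP-ribosyltransferase, was at 196 and 190 CPM in knockout, 85.4 and 91.5 in rescue and 53.2 and 56.7 in wild type (1.08 in the authors' deposited table, SE 0.05, adjusted p 1.43e-89). OAS3, which makes the 2-5A second messenger of antiviral RNA decay, was at 102 and 106 CPM in knockout, 40.2 and 44.9 in rescue and 17.1 and 18.2 in wild type (1.24 in the authors' deposited table). XAF1, an interferon-induced proapoptotic gene, was at 8.99 and 7.79 CPM in knockout, 2.46 and 2.25 in rescue and 0.05 and 0.04 in wild type. In these 3 genes rescue lay between knockout and wild type. Those called lower included IFIT1, IFIT3 and IFIT5, from -0.62 to -0.56 in the authors' deposited table.

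Of 35 interferon genes tested in the second experiment, 23 were called higher in knockout and 3 lower, and the median was 1.12. Over all genes tested there 19.1% were called higher and 23% lower. The core of the interferon-stimulated response element, GAAA followed after any 2 bases by GAAA, was searched on both strands (TTTC on the other strand) of the RefSeq promoters (GRCh38.p14). It was present in 10 of 15 promoters of the members called higher (66.7%), in 3 of 3 called lower, in 9 of 18 not called or not tested and in 3.65% of all 27305 promoters. Windows of 30 bases on the gene's strand show it in capitals for 4 members called higher, all of which had the motif on the gene's own strand. They lie at chr3:122680800-122680829 (plus strand, PARP14), chr12:112938452-112938481 (plus strand, OAS3), chr2:162318686-162318715 (minus strand, IFIH1) and chr4:168318786-168318815 (minus strand, DDX60).
PARP14: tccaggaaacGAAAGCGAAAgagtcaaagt
OAS3: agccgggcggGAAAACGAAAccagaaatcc
IFIH1: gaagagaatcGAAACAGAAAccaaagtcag
DDX60: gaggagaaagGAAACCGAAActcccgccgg

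Of 16 genes of MHC class I presentation, 11 were called higher in knockout and 1 lower, with a median of 0.54. The shares over all genes tested were 16.1% higher and 21.5% lower. ERAP1, which trims peptides in the endoplasmic reticulum, was at 117 and 124 CPM in knockout, 47.3 and 51.5 in rescue and 26.5 and 23.5 in wild type (1.24 in the authors' deposited table). TAPBP, the chaperone tapasin, was at 361 and 375.4 CPM in knockout and 191 and 207 in rescue (0.85 in the authors' deposited table). The class I heavy chain HLA-B, whose reads can be shared with related class I genes, was at 305 and 328 CPM in knockout and 198 and 206 in rescue. NF-kappaB targets were mixed, with 5 higher and 3 lower of 18. The noncanonical subunit gene NFKB2 was at 323 and 308 CPM in knockout, 229 and 231 in rescue and 91.6 and 87.5 in wild type, and the adhesion receptor ICAM1 at 142 and 144 in knockout, 91.2 and 100.1 in rescue, and 0.70 and 0.69 in wild type. For NFKB2 and ICAM1, rescue was nearer to knockout than to wild type.

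Matrix and adhesion genes moved strongly in both directions. Of 29 collagen genes 12 were called higher and 9 lower. Beside the list counts of this paragraph stand 16.1% called higher and 21.5% called lower of all genes tested. COL1A1 (ENSG00000108821), a chain of the main bone collagen, was at 510 and 518 CPM in knockout, 1637 and 1509 in rescue and 3387 and 3518 in wild type (-1.64 in the authors' deposited table, SE 0.05). COL3A1 was at 760 and 802 CPM in knockout, 74.7 and 99.5 in rescue and 37.5 and 37.3 in wild type (2.83 in the authors' deposited table). COL6A3 fell and COL16A1 rose in knockout, at -1.75 and 1.18 in the authors' deposited table. Matrix proteases and other matrix proteins counted 15 higher and 10 lower of 35, and integrins and focal adhesion genes 10 higher and 16 lower of 33. TAGLN, an actin-binding protein of contractile cells, was at 22.3 and 22.1 CPM in knockout and 105.1 and 93.6 in rescue, while the tropomyosin TPM1 was at 935 and 920 in knockout and 455 and 459 in rescue.

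Targets of the transcriptional coactivator YAP counted 6 higher and 11 lower of 20, against 16.1% higher and 21.5% lower of all genes tested. ANKRD1, a classical YAP target, was at 145 and 147 CPM in knockout, 404 and 418 in rescue and 531 and 534 in wild type. CCN2, another, was at 132 and 141 CPM in knockout, 286 and 291 in rescue and 761 and 782 in wild type. The ligands TGFB2 and TGFB3 rose in knockout, at 1.47 and 1.72 in the authors' deposited table, while the TGF-beta-induced matrix protein TGFBI fell, at -1.11 in the authors' deposited table. TGF-beta and BMP response genes counted 10 lower and 2 higher of 22.

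Mitosis and p53 lists had mostly lower calls, and the remaining lists varied in size and direction. Their counts stand beside 21.5% called lower and 16.1% called higher of all genes tested, and lists near these shares show no behaviour of their own. Mitosis genes counted 23 lower and 2 higher of 35 (median -0.22), with UBE2C, a ubiquitin-conjugating enzyme of the anaphase-promoting complex, at 29.5 and 26.8 CPM in knockout and 74.2 and 67.8 in rescue. p53 targets counted 15 lower and 4 higher of 24, with the cell cycle inhibitor CDKN1A at 210 and 195 CPM in knockout and 292 and 293 in rescue. Cholesterol synthesis genes counted 9 lower and 5 higher of 25, and lysosome and autophagy genes 15 higher and 11 lower of 32. HOX genes counted 5 in each direction of 35, and cancer-testis antigens 9 lower and 2 higher of 19. Keratins counted 4 lower and 1 higher of 11.

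**Figure D4:**
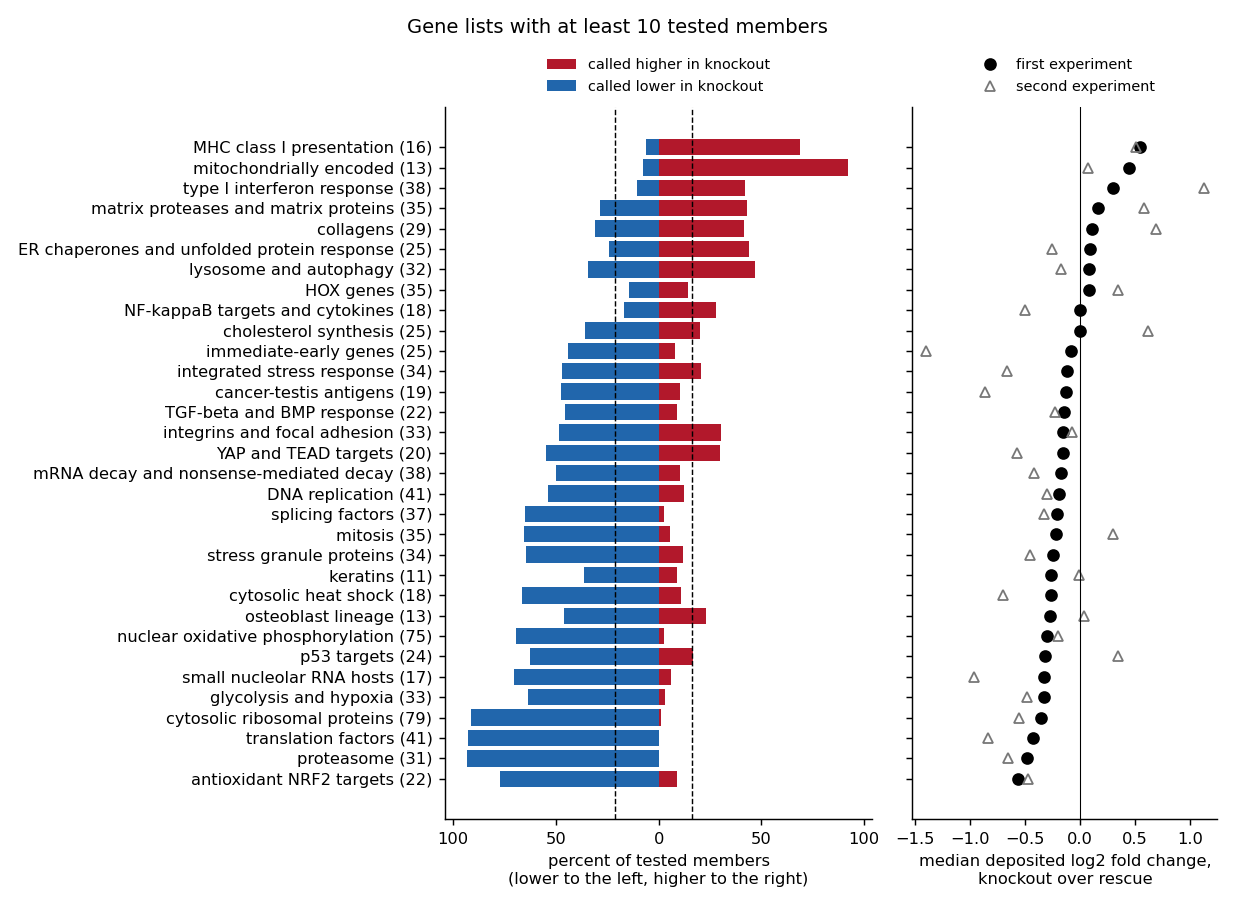
Left, percent of the tested members (number in brackets) of each gene list called lower (blue, to the left) or higher (red, to the right) in knockout; dashed lines are the shares over all genes tested, 21.5% and 16.1%. Right, median deposited log2 fold change of each list in the first (filled circles) and second experiment (open triangles): proteasome, translation factor and ribosomal protein genes are below 0 in both, interferon and MHC class I genes above 0 in both, and mitosis, p53, endoplasmic reticulum chaperone and lysosome genes among those on opposite sides.

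Markers of the labelled cell type were checked in the same libraries. Beside the marker counts stand 16.1% called higher and 21.5% called lower of all genes tested. Osteoblast lineage genes were present in part: SPARC was at 1421 and 1488 CPM in knockout, RUNX2 at 11.9 and 11.0, and SP7, IBSP, DLX5, DMP1 and MEPE at or near 0 in each group. Of 13 tested, 3 were called higher and 6 lower, and their summed level was 2057 to 2136 CPM in knockout, 2704 to 2797 in rescue and 5105 to 5219 in wild type. The mesenchymal marker VIM was at 1313 and 1340.3 CPM in knockout and 1830.5 and 1795 in rescue, and of the 9 tested markers 3 were higher and 5 lower. TWIST1 was at 0. Summed epithelial markers were at 89.6 and 96.1 CPM in knockout, 41.6 and 45.1 in rescue and 22.3 and 23.5 in wild type; 2 of 7 were higher and 0 lower, CLDN4 carrying most of the sum, while CDH1 was under 1 CPM. Haematopoietic (0 higher and 1 lower of 4), endothelial (1 and 0 of 2) and neural markers (1 and 4 of 7) summed to at most 6.93, 7.30 and 117 CPM in knockout and rescue, with CD3E at 0 in each library. In bulk RNA, fewer cells of a kind and less RNA per cell cannot be told apart.

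Whether the contrast recurred was asked of the second experiment, which shares no library with the first. Over 16368 genes whose base mean reached 10 in each table, the fold changes of knockout over rescue correlated across genes at a Pearson r of 0.597 and a Spearman rho of 0.589, and over the 10731 genes that reached 100 at 0.672 and 0.630; genes are not independent replicates. Of 3508 such genes called higher in the first experiment, 2107 (60.1%) were called higher in the second, or 55.8% of its 3774, against 23.1% of all 16368. Of 4576 called lower, 2927 (64.0%) were called lower in the second, or 62.1% of its 4714, against 28.8% of all 16368. Calls in opposite directions numbered 277 and 373.

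The 5 genes higher in both by the largest smaller change were ABCG1, MFAP4, LSAMP, IGSF10 and COL3A1. ABCG1 was at 30.1 and 35.6 CPM in knockout and 0.44 and 1.05 in rescue of the second experiment, and MFAP4 at 66.2 and 71.0 against 6.60 and 4.99. The 5 lower in both were MMP3, AMIGO2, EPHB1 (an ephrin receptor), COL13A1 (a transmembrane collagen) and SP140 (a nuclear body protein). MMP3 was at 0.09 and 0.33 CPM in knockout and 568 and 590 in rescue of the second experiment, and AMIGO2 at 21.3 and 22.0 against 245 and 246. SP140 was at 3.29 and 3.24 CPM in knockout, 32.9 and 30.6 in rescue and 3.38 and 2.89 in wild type, so that for MMP3 and SP140 rescue exceeded wild type in the first experiment.

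Opposite calls included the matrix genes COL1A1 and PXDN (peroxidasin), the ligand BMP4, the adhesion molecule SDK1 and the exchange factor MCF2L, all lower in knockout in the first experiment and higher in the second. COL1A1 was at 761 and 751 CPM in knockout and 218 and 214 in rescue of the second experiment, against 510 and 518 and 1637 and 1509 in the first. PXDN was at 12.3 and 13.6 CPM in knockout and 90.8 and 80.9 in rescue, then at 14.7 and 17.0 and at 3.63 and 4.71. FN1 turned in the same way, at 226 and 260 CPM in knockout and 98.9 and 103 in rescue of the second experiment. For COL1A1, PXDN and FN1 the knockout levels of the 2 experiments were closer to each other than the rescue levels.

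Higher first and lower second were ADAMTS1 (a secreted protease), CHRNB1 (an acetylcholine receptor subunit), CD274 (the checkpoint ligand PD-L1) and the pseudogenes SMG1P1 and GOLGA2P11. ADAMTS1 was at 48.9 and 49.3 CPM in knockout and 21.2 and 23.6 in rescue, then at 50.7 and 57.7 and at 118 and 128. CD274 was at 15.7 and 12.7 CPM in knockout and 8.17 and 8.27 in rescue, then at 9.17 and 11.6 and at 31.9 and 33.0. With Wald statistics divided by their spread, the first-experiment calls of CD274 (adjusted p 0.199), SMG1P1 (0.352) and GOLGA2P11 (0.778) were lost.

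The difference of the 2 fold changes, tested against a normal distribution, two-sided, with Benjamini-Hochberg adjustment, was called at 6101 of 16368 genes (37.3%), with the first experiment higher at 3319 and lower at 2782. Centred on the medians of both tables, the split was 2335 and 3501 of 5836. For COL1A1 the difference, first minus second, was -3.20 (SE 0.07), and for ADAMTS1 it was 2.49 (SE 0.13, adjusted p 5.79e-75). AMIGO2, MFAP4 and SULF1 did not pass this test, with differences of -0.07 (SE 0.11), -0.11 (SE 0.21) and -0.07 (SE 0.47). Mitosis genes, called lower at 23 of 35 in the first experiment, were called higher at 23 of 35 and lower at 0 in the second. The shares of all genes tested were 21.5% lower in the first and 19.1% higher in the second. The 2 tables are shrunken toward 0 to different degrees and the second experiment has fewer reads, which enters these differences.

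**Figure D5:**
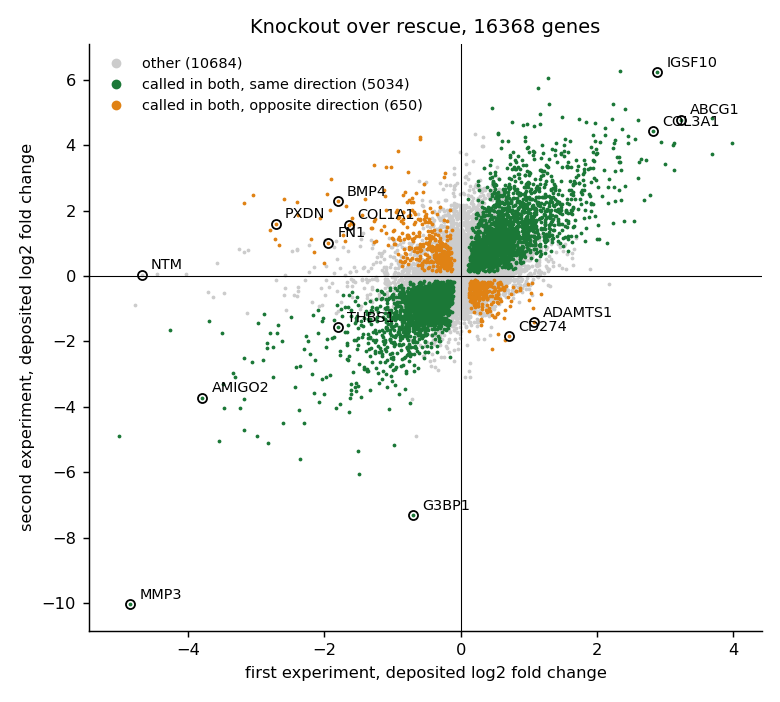
Deposited log2 fold change of knockout over rescue in the first (horizontal) and second experiment (vertical; sign turned) for 16368 genes; green, called in both in the same direction; orange, in opposite directions; grey, other. G3BP1 lies at -0.69 and -7.31, and COL1A1, PXDN, BMP4 and FN1 lie in the upper left.

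Binding of G3BP1 was measured in the series by RNA immunoprecipitation from FlpIn 293 Trex cells, an embryonic kidney line with tetracycline-induced FLAG-G3BP1, and the authors' deposited table called 24.7% of its 22856 tested genes higher and 31.4% lower in the immunoprecipitate. Of the 19633 genes tested in knockout against rescue that have a value there, 27.5% were called higher in the immunoprecipitate and 34.7% lower. Among genes called lower in knockout than in rescue these shares were 52.8% and 26.6% of 4557, and among genes called higher 20.0% and 51.2% of 3199. Within base means of 1000 to 10000 the shares higher in the immunoprecipitate were 57.1% of the genes called lower and 22.5% of those called higher, against 41.2% of all tested in that range. RPL11 and EIF3J, lower in knockout, were at 1.21 and 0.23 in the authors' deposited table of the immunoprecipitation. PARP14, OAS3 and ROBO1, higher in knockout, were at -3.08, -2.45 and -2.30 in it. FN1, lower in knockout like RPL11 and EIF3J, was at -3.19, so single genes need not follow these shares. These genes are examples picked from many.

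Neighbouring genes were read in the order of the RefSeq annotation, over 18561 tested genes that could be placed. Runs of at least 6 neighbours called in 1 direction numbered 36, of which 29 were lower and 7 higher in knockout. Of all genes tested 21.5% were called lower and 16.1% higher. How many runs these shares alone would give was not worked out, so the number of runs is a description. The longest held 12 genes from NUDT5 to FAM107B, all lower, with a median of -0.57, and another held 10 lower genes from TRIP11 to MOAP1. NTM lay in a run of 7 lower genes from ADAMTS8 to OPCML. Runs of higher genes included 11 of the protocadherin beta cluster (PCDHB5 to PCDHB13), 11 of the gamma cluster (PCDHGA2 to PCDHGA8) and 8 from the histone gene H4C5 to BTN3A3.

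The clustered protocadherins, which give neurons a combinatorial surface identity, were taken as families after these runs were seen. In the beta cluster 12 of 15 rose in knockout, in the gamma cluster 16 of 22 and in the alpha cluster 6 of 15, with 0 lower in each, against 16.1% higher of all genes tested. Runs hold only called genes, so the beta and gamma counts were largely set by this choice and are a description. Beta genes summed to 317 and 327 CPM in knockout, 146 and 155 in rescue and 222 and 219 in wild type. Gamma genes summed to 113 and 114 CPM in knockout, 67.5 and 65.3 in rescue and 108 and 109 in wild type. Alpha genes summed to 94.7 and 102 CPM in knockout, 58.4 and 58.9 in rescue and 73.9 and 73.5 in wild type. In these sums rescue was the lowest of the 3 groups for each cluster, and for gamma knockout was near wild type. Single members differed. PCDHB2 was at 41.2 and 43.4 CPM in knockout, 11.3 and 13.4 in rescue and 1.19 and 0.91 in wild type. PCDHB5 was at 74.0 and 79.7, 45.2 and 48.0, and 90.8 and 91.4. PCDHGB4 was at 8.78 and 8.58 CPM in knockout and 0.33 and 0.40 in wild type. PCDHGC3, a large part of the gamma sum, was at 31.5 and 33.4 CPM in knockout and 50.1 and 51.5 in wild type. Gamma genes share their last exons, as do alpha genes, so reads of their members are not independent. In the second experiment 15 of 15 beta, 16 of 22 gamma and 11 of 15 alpha genes were called higher. Of all genes tested there, 19.1% were called higher and 23% lower. The BTN2A and BTN3A genes, of the butyrophilin family, were also taken after the run ending at BTN3A3 was seen. Of the 5, 4 were called higher in knockout and 0 lower. All 4 lie in that run, so this count was set by the choice. BTN3A1 was at 1.36 and BTN2A1, not called, at 0.09 in the authors' deposited table. Of these 5, the second experiment had 4 called higher and 1 lower, BTN2A1, at -0.47 in the authors' deposited table.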

How the data were processed

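RNA was sequenced from 6 libraries of the first experiment and 4 of the second. Reads were aligned with STAR 2.7.0f (first experiment) and STAR 1.5.3 (second) and compared with DESeq2 2.11.40.6, per the submitters' processing notes. The STAR version of the second experiment is printed as listed and could not be checked. The genome build, the annotation and the read counter are not given in the sources used here, nor is whether counting used strand. The authors' deposited tables hold, per gene, the base mean (a normalised signal averaged over the libraries of a comparison), the log2 fold change with its standard error, the Wald statistic (a score) and the p-value with its Benjamini-Hochberg adjustment. Log2 fold changes in the deposited tables are shrunk toward 0.

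Each base mean averages whole reads divided by size factors, and the tables that share libraries were solved together for the reads of each library; every one of 38470 and 35659 rows of the 2 experiments was matched exactly (100%). The libraries of a group carry no replicate number in this solution. CPM was computed from these reads, leaving out rows of unassigned reads. Calls are those of the authors' deposited adjusted p under 0.05. Alternative fits used limma 3.58.1 on log2 of the recovered reads over size factor, with a pseudocount of 1 or 5 added before the logarithm. Each library was also left out in turn, at a pseudocount of 1. The other alternatives were a stricter adjusted p (0.01), a minimum absolute log2 fold change of 1, other base mean minimums, centring, and Wald statistics divided by their spread. Differences between experiments were tested on genes with base means of at least 10, from both deposited standard errors. On simulated data limma recovered 100% of 2-fold changes over 20881 genes with 3.38% false calls, and the difference test 90% of log2 differences of 1 over 16368 genes with 4.52% false calls. The noise of the difference simulation came from the same standard errors that its test used, without shrinkage, so its share of false calls was set by construction. The limma simulation assumed its own spread between libraries and far fewer changed genes than were called here. Neither share measures false calls in the real data. Python 3.11, pandas 2.3.3 and R 4.3.3 were used. Of the gene IDs, 61369 were listed in the name table and 42045 of them had a symbol; DDX58 and SOD2 were not matched. Per-sample columns left unused numbered 0.

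The contrast and the 38 gene lists were chosen with earlier results of these data known. Named genes are G3BP1 and G3BP2, the 10 highest and 10 lowest called fold changes at base means of at least 100, the 5 largest Wald statistics each way at base means of at least 1000, up to 4 members per list by Wald statistic, and the 5 genes each way called in the same or in opposite directions in both experiments, by the smaller fold change. Genes named outside this rule were chosen after their values were seen: the genes silent in knockout, CAPRIN1, USP10, RPS15A, TIA1, ATXN2L, ZC3HAV1, IFIT1, IFIT3, IFIT5, IFIH1, DDX60, the markers at or near 0, RUNX2, and the genes of neighbour runs, protocadherins and butyrophilins.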

Additional observations from a re-analysis of the deposited data

Results flagged for a closer look

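The log2 fold change of knockout over rescue differed between the first and second experiment, by a two-sided normal test of the difference with Benjamini-Hochberg adjustment, at 6101 of 16368 genes, and at 28 of the 39 genes tested among those named by fold change, Wald statistic or calls in both experiments. Some of the 39 were named for opposite calls or for extreme values in the first experiment, so the count of 28 reflects that choice. Values here are first minus second on the log2 scale, from the deposited fold changes. G3BP1 differed by 6.62 and G3BP2 by 0.30. Among genes higher in knockout in the first experiment, the difference was -1.55 for ABCG1, -3.33 for IGSF10, -0.82 for RNF150, -1.15 for LOXL4, -2.03 for SHOC1, -2.54 for DCHS2 and -1.59 for COL3A1, all of which were further above rescue in the second experiment, and 0.46 for ROBO1. Among genes lower in knockout in both, MMP3 (5.19), EPHB1 (1.49) and SP140 (1.53) were further below rescue in the second experiment, and THBS1 (-0.22) and BCYRN1 (-2.61) in the first.

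NTM and CNTN1, lower in the first experiment and not called in the second, differed by -4.72 and -3.90. FN1 turned from lower to higher, with a difference of -2.96, as did MCF2L (-3.92), BMP4 (-4.09), PXDN (-4.30), SDK1 (-3.17) and COL1A1 (-3.20). Genes that turned from higher to lower were ADAMTS1 (2.49), CHRNB1 (1.53), SMG1P1 (1.67), CD274 (2.55) and GOLGA2P11 (1.69). The genes that turned were picked for opposite calls, so their differences are a description. G3BP1 in rescue, depth, aligner version and transfection differ or may differ between the 2 experiments together, and their parts cannot be told apart.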

How the results depend on the processing

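The main counts were 3692 genes higher and 4925 lower in knockout. A minimum absolute log2 fold change of 1 left 598 and 651, and Wald statistics divided by their spread (2.36) left 945 and 1670. The limma fits without 1 library each gave 3558 to 3986 higher and 4524 to 5116 lower; there the lone library of a group is assumed to vary like the others. With all libraries, limma called 5249 and 6049 at a pseudocount of 1, centring gave 4350 and 4309, and other settings stayed within 1.5 times the main counts. The difference between experiments fell from 6101 genes to 1938 with a minimum difference of 1. Of 2006 values recomputed for 183 results on named genes 0 changed direction and 13 lost their call, all under division by the spread: those of G3BP2, SMG1P1, CD274, GOLGA2P11, RELB, MUC1, PTPRC, SYP, SOX2, MT1E, HOXB9, HOXA10 and HOXB3. The stricter adjusted p and the minimum fold change were left out of these 2006 values. Under a minimum of 1, named genes with smaller changes, such as G3BP1 (-0.69) and RPL11 (-0.76), would not be called. Of 114 list medians 13 moved, all under a base mean minimum of 100 or group means; the interferon median was then 0.51 and that of immediate-early genes -0.43, while the haematopoietic one turned to 0.03. No paired analysis was possible because the libraries recovered from the base means carry no replicate numbers. Depth limits low genes: 2.62% of genes with a base mean under 10 were called, so that differences there were mostly not detectable.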
